A study of Mus musculus with 6 samples.

Results

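Cullin-RING ligases (CRLs) are ubiquitin ligases built on a cullin scaffold, and they choose their targets through exchangeable substrate receptors. This account covers the genes for the receptors that work with CUL4 (CRL4), CUL2 (CRL2) and CUL5 (CRL5), with their adaptors, in mouse CD8+ T cells. The genes were chosen by symbol, as the Dcaf, Asb, Spsb, Wsb, Fem1 and Klhdc families plus 13 single genes. Of 18288 gene symbols in the deposited matrix, 49 matched, and 47 had a mean of at least 10 normalized counts over the 6 libraries. A normalized count is the number of reads assigned to a gene divided by 1 size factor per library. Asb5 and Asb14 fell below that minimum, the latter at a mean of 8.32, and the lowest gene kept was Wsb2-ps at 11.9. By its annotation Wsb2-ps is a processed pseudogene, which matches the family by its symbol and is counted with the 47.

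RNA sequencing was done on CD8+ T cells of Nae1T-KO and Nae1WT mice, activated in culture and profiled at day 2, with 3 biological replicates in each group. The labels give no driver or design of the Nae1 deletion and no strain, age, stimulus or pooling of mice, and whether each replicate is a mouse of its own is not given. The p-values therefore measure the spread between these samples, which may be technical in part. By Xist, described below, each group held libraries of female and of male cells, so neither group came from a single mouse.

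In a CRL the cullin binds a RING protein at one end and an adaptor with its receptor at the other. The adaptor of CRL4 is DDB1, whose receptors are called DCAFs, while CRL2 and CRL5 share the Elongin B and Elongin C adaptor, to which VHL-box and SOCS-box receptors bind. The ligase is switched on when NEDD8, a small relative of ubiquitin, is joined to the cullin, and Nae1 encodes a subunit of the enzyme that starts this joining. NEDD8 also bears on receptor exchange, since only cullins without it are bound by the exchange factor CAND1.

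The libraries held 15628252 to 25444653 recovered reads. Nae1 had 338 to 390.3 normalized counts in Nae1T-KO and 1601 to 1882 in Nae1WT, so the labels matched the targeted gene. The 6 CD8 T cell markers summed to 20634 to 23714 normalized counts in Nae1T-KO and 21837 to 25134 in Nae1WT. The 5 of 7 myeloid markers in the table summed to 101 to 122 in Nae1T-KO and 31.4 to 61.4 in Nae1WT, the 6 B cell markers to 197 to 535 and 224 to 347, the 6 erythroid markers to 194 to 2042 and 142 to 629, the 4 CD4 T cell markers to 126 to 273 and 110 to 212, and the 2 NK cell markers to 9.69 to 26.3 and 16.7 to 25.8. No marker in the table was at 0 in every library, and the part of such cells in the results was not tested. In bulk samples fewer cells that express a gene and less RNA per cell cannot be told apart. Judged by the inactive-X transcript Xist, Nae1T-KO replicates 1 and 2 and Nae1WT replicate 3 came from female cells and the other 3 libraries from male cells. Differences between groups are therefore also given within each sex, with 2 Nae1T-KO libraries against 1 Nae1WT library in females and 1 against 2 in males.

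With both directions counted together, receptor genes passed the test at a rate near that of all tested genes. Those that passed differed by at most 1.49-fold. Genes were compared with limma on log2(normalized count + 1) over 13819 tested genes, and an adjusted p under 0.05 was called. All 47 genes were tested, and 7 passed: Crbn, Dtl, Dcaf13, Asb1, Asb3 and Lrr1 were lower in Nae1T-KO and Klhdc3 was higher. That is 14.9% of the set, near the 12.7% of all tested genes that were called. By direction, 1 of the 47 genes was called higher, a share below the 6.53% of all tested genes called higher. The 6 of 47 called lower were a share above the 6.18% of all tested genes called lower. These differences in share were not tested. Groups did not overlap for 20 of the 47 genes, 10 in each direction, or 42.6%, against 33.7% of all tested genes. The median log2 fold change of the set was 0.053, against -0.0061 for all tested genes, and the median of its absolute values was 0.18 against 0.19. Scaling to total counts gave 4 higher and 4 lower genes in place of 1 and 6, and 1176 higher and 622 lower over all tested genes in place of 903 and 854. Klhdc1, Dcaf12 and Wsb1 then passed as higher, while Asb3 and Lrr1 did not pass.

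**Figure D1:**
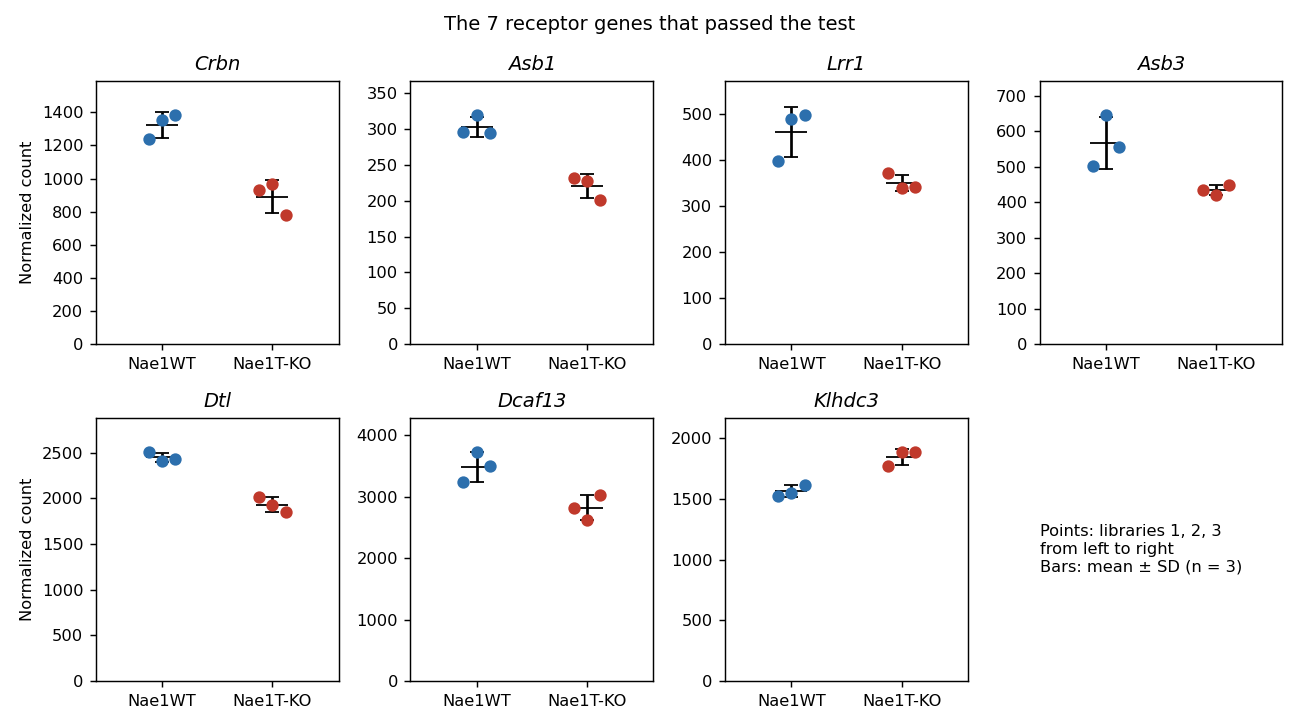
Normalized counts (vertical axis, from 0) of the 7 called genes in each Nae1WT and Nae1T-KO library; points are libraries and bars mark mean ± SD, n = 3. Groups do not overlap in any panel; Klhdc3 is the only gene that is higher in Nae1T-KO.

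Of the called genes, Crbn and Dtl, both CRL4 receptors, kept their call under the most alternative settings. Their promoter windows are shown here with that of Lrr1, another lower gene tied to DNA replication, as the 250 bases before the start in the RefSeq promoter table of GRCm38.p6, the mm10 build. Capitals mark a match to an E2F site, searched on both strands as TTTCCCGC, TTTCGCGC, TTTGCCGC and TTTGGCGC. E2F factors drive genes of the S phase. The windows lie at chr6:106800088-106800337 for Crbn (minus strand), chr1:191575545-191575794 for Dtl (minus strand) and chr12:69168564-69168813 for Lrr1 (plus strand).
Crbn: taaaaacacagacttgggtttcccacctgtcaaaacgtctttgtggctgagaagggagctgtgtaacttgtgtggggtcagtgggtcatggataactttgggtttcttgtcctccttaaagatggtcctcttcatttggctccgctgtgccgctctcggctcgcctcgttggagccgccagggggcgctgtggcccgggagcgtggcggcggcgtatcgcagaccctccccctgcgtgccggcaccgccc
Dtl: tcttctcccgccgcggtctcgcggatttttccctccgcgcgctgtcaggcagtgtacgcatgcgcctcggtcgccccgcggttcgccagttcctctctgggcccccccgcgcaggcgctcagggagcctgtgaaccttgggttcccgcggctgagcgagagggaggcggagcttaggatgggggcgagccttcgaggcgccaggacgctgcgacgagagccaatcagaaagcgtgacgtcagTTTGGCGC
Lrr1: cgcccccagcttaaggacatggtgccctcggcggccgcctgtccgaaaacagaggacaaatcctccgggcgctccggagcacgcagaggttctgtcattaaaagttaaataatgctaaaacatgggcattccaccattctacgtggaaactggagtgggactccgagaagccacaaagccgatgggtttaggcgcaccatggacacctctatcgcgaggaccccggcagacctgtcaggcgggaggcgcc

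The Dtl window held 1 match, in the last 8 bases before the start, and the Crbn and Lrr1 windows held none. Among 52 windows of 41 of the 47 genes, 3 held a match, those of Dcaf15, Dtl and Spsb1, or 5.77%, against 1.86% of 32851 windows of all genes and 3.33% of 12772 windows of tested genes. The antioxidant response element of NRF2, searched on both strands as TGAC, any 3 bases and GCA, was found for Asb8 and Dcaf4 alone. That is 3.85% of the windows of the set, against 2.48% of all windows and 2.23% of windows of tested genes. These matches describe letters in the windows and were not tested against the fold changes.

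The adaptor gene Ddb1 (chr19:10605568-10629828) showed no difference that passed the test. Levels of different genes are compared here as normalized counts per kilobase of exon, which corrects for gene length, and on this scale Ddb1 stood at 2374 in Nae1WT, second of the 47 genes after Elob. Its normalized count was 11804, 11100 and 8938 in Nae1T-KO cells against 11259, 9760 and 10743 in Nae1WT. Nae1T-KO replicate 3 was the lowest of the 6 and the groups overlapped. The log2 fold change was -0.0038 with 95% confidence limits of -0.24 and 0.23 (limma, adjusted p = 0.986).

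Crbn (chr6:106778244-106800099, minus strand) encodes cereblon, the CRL4 receptor bound by thalidomide and its relatives. Its normalized count was 928, 968 and 778 in Nae1T-KO cells against 1238, 1352 and 1382 in Nae1WT. Every Nae1T-KO library lay below every Nae1WT library, and Nae1T-KO replicate 3 was the lowest. The means were 891 ± 101 (SD, n = 3) and 1324 ± 76.0 (SD, n = 3), a fall by 0.57 on the log2 scale (SE 0.09, limma, adjusted p = 0.00418), or 1.49-fold. Crbn was called in 20 of 20 alternatives, with log2 fold changes of -0.69 to -0.48. The difference was -0.54 within females and -0.73 within males. The 3′ end of Crbn overlaps that of Trnt1, on the other strand, by 144 bases of exon, and Trnt1 fell too, by 0.37 on the log2 scale (adjusted p = 0.0126). Whether the counting used strand is not given in the sources used here, so reads from the shared stretch could belong to either gene.

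Dtl (chr1:191537356-191575544, minus strand), also called Cdt2, encodes the receptor that reads substrates bound to PCNA on replicating DNA, among them CDT1, p21 and the histone methyltransferase KMT5A. It had 2017, 1928 and 1847 normalized counts in Nae1T-KO cells against 2506, 2410 and 2431 in Nae1WT. The groups stood well apart, with 1931 ± 84.8 (SD, n = 3) against 2449 ± 50.7 (SD, n = 3). The fall was 0.34 on the log2 scale (SE 0.07, limma, adjusted p = 0.00841), or 1.27-fold, with -0.30 within females and -0.41 within males. Dtl was called in 19 of 20 alternatives, in which the adjusted p spanned 0.000383 to 0.168.

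Dcaf13 (chr15:39112874-39146856), whose product also takes part in ribosomal RNA processing, was the most abundant receptor of the set, at 2250 normalized counts per kilobase in Nae1WT. Its normalized count was 2812, 2623 and 3034 in Nae1T-KO cells against 3240, 3727 and 3502 in Nae1WT. The groups did not overlap, and the nearest libraries were Nae1T-KO replicate 3 and Nae1WT replicate 1. It fell by 0.31 on the log2 scale (SE 0.08, limma, adjusted p = 0.0300), with -0.37 within females and -0.20 within males. The call was lost without Nae1T-KO replicate 1 (adjusted p = 0.0753), Nae1T-KO replicate 2 (0.0945), Nae1WT replicate 2 (0.126) or Nae1WT replicate 3 (0.0968) and with sex as a covariate (0.0569), and the adjusted p spanned 0.00868 to 0.201 over the alternatives.

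The other 15 CRL4 receptors did not pass the test, and the median log2 fold change over all 18 was 0.01. Det1, the partner of COP1 in the degradation of JUN, had 385, 317 and 330 normalized counts in Nae1T-KO cells against 403, 390 and 367 in Nae1WT. The groups overlapped through Nae1T-KO replicate 1, and the log2 fold change was -0.17 (95% confidence limits -0.41 and 0.06, limma, adjusted p = 0.311). Ambra1, the receptor for D-type cyclins, had 1046, 1117 and 1078 in Nae1T-KO cells against 1093, 984 and 987 in Nae1WT. Its groups overlapped through Nae1WT replicate 1, with a log2 fold change of 0.08 (95% confidence limits -0.08 and 0.25, adjusted p = 0.510). Ddb2, which recognises ultraviolet damage in DNA, had 162, 209 and 174 in Nae1T-KO cells against 182, 176 and 192 in Nae1WT, and its libraries were intermingled (log2 fold change -0.02, 95% confidence limits -0.32 and 0.28, adjusted p = 0.944). Ddb2 shares 621 bases of exon with Acp2 on the other strand, whose log2 fold change was -0.26 (adjusted p = 0.147), so its reads may be mixed. Dcaf12, a receptor for certain C-terminal degrons, had 1557, 1468 and 1640 in Nae1T-KO cells against 1421, 1355 and 1234 in Nae1WT. Its groups did not overlap, and the log2 fold change of 0.22 missed the threshold (adjusted p = 0.0918), although it passed with total-count scaling (0.0480) and with sex as a covariate (0.0452), and the adjusted p spanned 0.0452 to 0.298 over the alternatives.

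Among the remaining CRL4 receptors, Dcaf1, which lentiviral accessory proteins exploit, and Dcaf15, the target of aryl sulfonamide drugs, had log2 fold changes of 0.05 and 0.01. Dcaf7, a scaffold for the kinase DYRK1A, had 0.18, Dcaf4 0.20, Dcaf6 0.09, Dcaf10 0.07, Wdtc1 0.05 and Dcaf11 0.02. Dcaf8 had -0.06, Dcaf17 -0.16 and Dcaf5 -0.18. In this group of 11 the groups overlapped for all but Dcaf4.

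**Figure D2:**
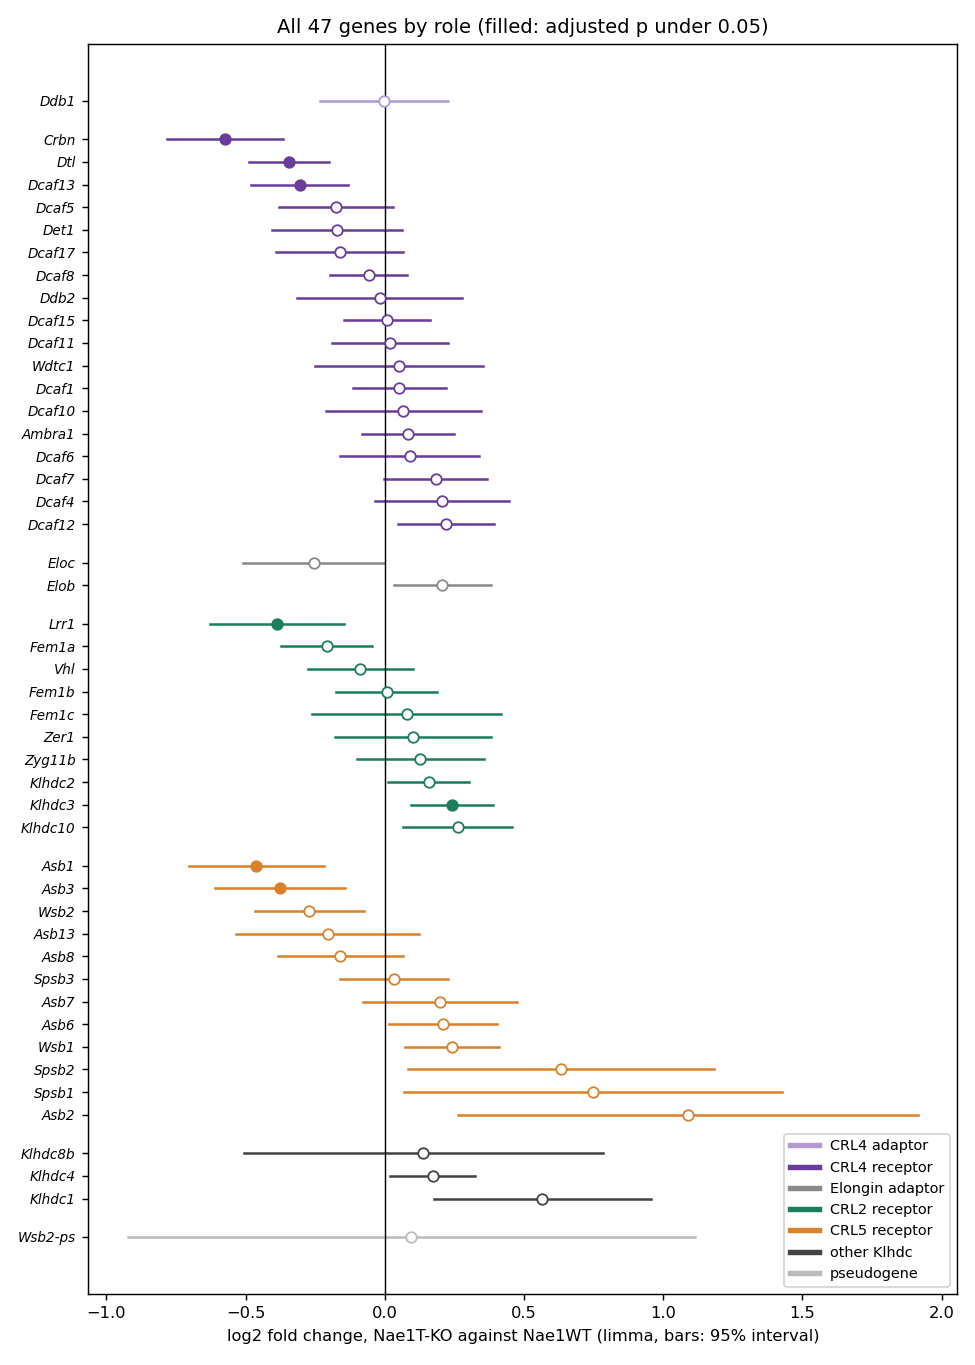
Log2 fold change of each of the 47 genes (points) with its 95% interval (bars), Nae1T-KO against Nae1WT, ordered within each role; filled points are called. Points run from -0.57 for Crbn to 1.09 for Asb2, 6 of the 7 filled points lie on the lower side, and the widest intervals belong to Asb2, Spsb1, Spsb2, Klhdc8b and Wsb2-ps, which have few counts.

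The Elongin adaptors, used by CRL2 and CRL5, leaned in opposite directions and neither passed. Elob had 2464, 2119 and 2497 normalized counts in Nae1T-KO cells against 2089, 1967 and 2063 in Nae1WT. The lowest Nae1T-KO library, replicate 2, was still above the highest Nae1WT library. The log2 fold change was 0.21 (limma, adjusted p = 0.109), and the gene passed when Nae1T-KO replicate 2 was left out (0.28, adjusted p = 0.0447, and the adjusted p spanned 0.0447 to 0.287 over the alternatives). Eloc had 3042, 2661 and 3442 in Nae1T-KO cells against 3244, 4186 and 3496 in Nae1WT. Its groups overlapped and its log2 fold change was -0.26 (adjusted p = 0.167).

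CRL2 receptors held 1 called gene in each direction among 10, with a median log2 fold change of 0.09. Lrr1 (chr12:69168814-69179012, plus strand), which targets the replicative helicase for removal from chromatin, had 371, 340 and 342 normalized counts in Nae1T-KO cells against 399, 489 and 497 in Nae1WT. Nae1WT replicate 1 was the lowest of its group and still above Nae1T-KO replicate 1. The fall was 0.39 on the log2 scale (SE 0.11, limma, adjusted p = 0.0421), with -0.48 within females and -0.37 within males. It was called in 11 of 20 alternatives. The call was lost with total-count scaling (-0.34, adjusted p = 0.0620) and when any library other than Nae1WT replicate 1 was left out, where adjusted p was 0.0607 to 0.150. Over the alternatives it spanned 0.0211 to 0.150.

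Klhdc3 (chr17:46674550-46680930, minus strand), a receptor for C-terminal degrons, was the called gene that was higher. It had 1772, 1884 and 1886 normalized counts in Nae1T-KO cells against 1523, 1551 and 1617 in Nae1WT. The groups did not overlap, and the log2 fold change was 0.24 (SE 0.07, limma, adjusted p = 0.0394), or 1.18-fold, with 0.18 within females and 0.30 within males. The call was lost with sex as a covariate (adjusted p = 0.0680) and when any 1 library was left out, with adjusted p between 0.0547 and 0.131. It held in 9 of 20 alternatives, over which adjusted p spanned 0.0245 to 0.372. Klhdc3 overlaps Mea1 on the other strand by 66 bases of exon, and Mea1 had a log2 fold change of -0.05 (adjusted p = 0.804).

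The other C-terminal degron receptors of the Klhdc family leaned the same way without passing. Klhdc10 had 1092, 1058 and 896 normalized counts in Nae1T-KO cells against 840, 832 and 860 in Nae1WT, for a log2 fold change of 0.26 (limma, adjusted p = 0.0765). Its groups did not overlap, and the call came without Nae1T-KO replicate 3 (0.35, adjusted p = 0.0161, and the adjusted p spanned 0.0161 to 0.423 over the alternatives). Klhdc2, a receptor for proteins that end in glycine, had a log2 fold change of 0.16 (adjusted p = 0.139), with no overlap between groups. Klhdc1, Klhdc4 and Klhdc8b, for which no role in a CRL is assigned here, had 0.57, 0.17 and 0.14. In Klhdc1 the normalized counts were 151, 211 and 223 in Nae1T-KO cells against 114, 128 and 149 in Nae1WT. Nae1T-KO replicate 1 nearly met Nae1WT replicate 3, and the gene missed the threshold (adjusted p = 0.0603). Klhdc1 passed with total-count scaling (0.0484), in DESeq2 on the recovered reads (0.0336) and without Nae1T-KO replicate 1 (0.0236), with adjusted p of 0.0236 to 0.372 in all. Its difference was 0.26 within females and 0.88 within males. All 6 Klhdc genes had a positive log2 fold change, and 1 of the 6 passed.

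VHL is the receptor that marks hypoxia-inducible factors for destruction. Vhl had 471, 434 and 455 normalized counts in Nae1T-KO cells against 495, 479 and 472 in Nae1WT. The groups lay close without overlapping, and the log2 fold change was -0.09 with 95% confidence limits of -0.28 and 0.10 (limma, adjusted p = 0.539). Fem1a, Fem1b and Fem1c encode a family of C-terminal degron receptors, of which FEM1B recognises FNIP1. Fem1a had 1216, 1123 and 1084 in Nae1T-KO cells against 1293, 1286 and 1375 in Nae1WT, for a log2 fold change of -0.21 (adjusted p = 0.0892). Its groups did not overlap. Fem1b had 0.01 and Fem1c 0.08, with overlapping groups. Zyg11b and Zer1, receptors for proteins with an N-terminal glycine, had 0.13 and 0.10 and overlapped as well.

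CRL5 receptors carry a SOCS box, and 2 of the 12 passed, both lower, with a median log2 fold change of 0.12 over the 12. Asb1 (chr1:91540001-91559590, plus strand) had 232, 227 and 201 normalized counts in Nae1T-KO cells against 296, 319 and 294 in Nae1WT. The groups were clearly separate, and the fall was 0.46 on the log2 scale (SE 0.11, limma, adjusted p = 0.0221), or 1.38-fold, with -0.36 within females and -0.61 within males. Asb1 was called in 15 of 20 alternatives. It lost the call without Nae1WT replicate 2 (-0.42, adjusted p = 0.0937) or Nae1WT replicate 3 (-0.48, 0.0614), and the adjusted p spanned 0.0141 to 0.178 over the alternatives.

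Asb3 (chr11:30954392-31102704) had 435, 420 and 447 normalized counts in Nae1T-KO cells against 501, 645 and 555 in Nae1WT. The Nae1T-KO libraries lay close together and the Nae1WT libraries spread more, with replicate 2 the highest. The fall was 0.38 on the log2 scale (SE 0.10, limma, adjusted p = 0.0404), with -0.38 within females and -0.34 within males. The call held in 10 of 20 alternatives. It was lost with total-count scaling (adjusted p = 0.0549), with sex as a covariate (0.0715) and when any library other than Nae1WT replicate 1 was left out, where adjusted p was 0.0521 to 0.158. Over the alternatives it spanned 0.0208 to 0.160.

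The CRL5 receptors with the largest fold changes were low in level and variable. Asb2, which targets filamins in blood cells, had 92.8, 46.7 and 51.5 normalized counts in Nae1T-KO cells against 18.4, 25.1 and 47.2 in Nae1WT. Nae1WT replicate 3 lay above Nae1T-KO replicate 2, so the groups overlapped. The log2 fold change was 1.09 (95% confidence limits 0.26 and 1.91, limma, adjusted p = 0.0818), and it passed without Nae1WT replicate 3 (1.46, adjusted p = 0.0334, and the adjusted p spanned 0.0334 to 0.318 over the alternatives). Spsb1 and Spsb2 encode receptors for inducible nitric oxide synthase. Spsb1 had 143, 115 and 88.9 in Nae1T-KO cells against 51.6, 52.3 and 112 in Nae1WT, for a log2 fold change of 0.75 (adjusted p = 0.137). Here too Nae1WT replicate 3 lay within the Nae1T-KO range. Without that library Spsb1 passed (1.11, adjusted p = 0.0222, and the adjusted p spanned 0.0222 to 0.606 over the alternatives). Spsb2 had 72.7, 59.0 and 49.5 in Nae1T-KO cells against 35.6, 31.4 and 49.5 in Nae1WT, for a log2 fold change of 0.63 (adjusted p = 0.120), with Nae1WT replicate 3 level with Nae1T-KO replicate 3. Spsb2 shares 34 bases of exon with Tpi1 on the other strand, which had a mean of 15438 normalized counts against 49.6 for Spsb2, so reads of Tpi1 could be among them. In females, to which Nae1WT replicate 3 belongs, the differences were 0.47 for Asb2, 0.19 for Spsb1 and 0.40 for Spsb2. In males they were 1.22, 0.76 and 0.55.

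The Wsb pair leaned in opposite directions. Wsb1, a receptor for the deiodinase DIO2 and the most abundant CRL5 receptor at 776 normalized counts per kilobase in Nae1WT, had 2232, 2168 and 2399 normalized counts in Nae1T-KO cells against 1772, 1945 and 2044 in Nae1WT. Wsb2 had 471, 504 and 461 in Nae1T-KO cells against 548, 617 and 571 in Nae1WT. In both genes the groups did not overlap, with Wsb1 higher and Wsb2 lower in every Nae1T-KO library. The log2 fold changes were 0.24 (limma, adjusted p = 0.0641) and -0.27 (adjusted p = 0.0691). Wsb1 passed with total-count scaling (0.29, adjusted p = 0.0294, and the adjusted p spanned 0.0294 to 0.348 over the alternatives), while Wsb2 passed in none of the 20. The remaining CRL5 receptors were Asb6 at 0.21, Asb7 at 0.20, Spsb3 at 0.03, Asb8 at -0.16 and Asb13 at -0.21, none of them called. The pseudogene Wsb2-ps had a log2 fold change of 0.09 on 6.14 to 17.5 normalized counts, and reads of Wsb2 and of this copy may not be told apart.

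In level the set spanned from 3798 normalized counts per kilobase of exon for Elob to 9.63 for Wsb2-ps, as means of the Nae1WT libraries. Elob, Ddb1 and Eloc, the adaptors, held ranks 1, 2 and 4, with Dcaf13 between them. The next receptors were Wsb1, Klhdc2 at 663, Crbn at 635 and Klhdc3 at 609. Vhl stood at 173, rank 24. Asb2, Klhdc8b and Wsb2-ps were the lowest.

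**Figure D3:**
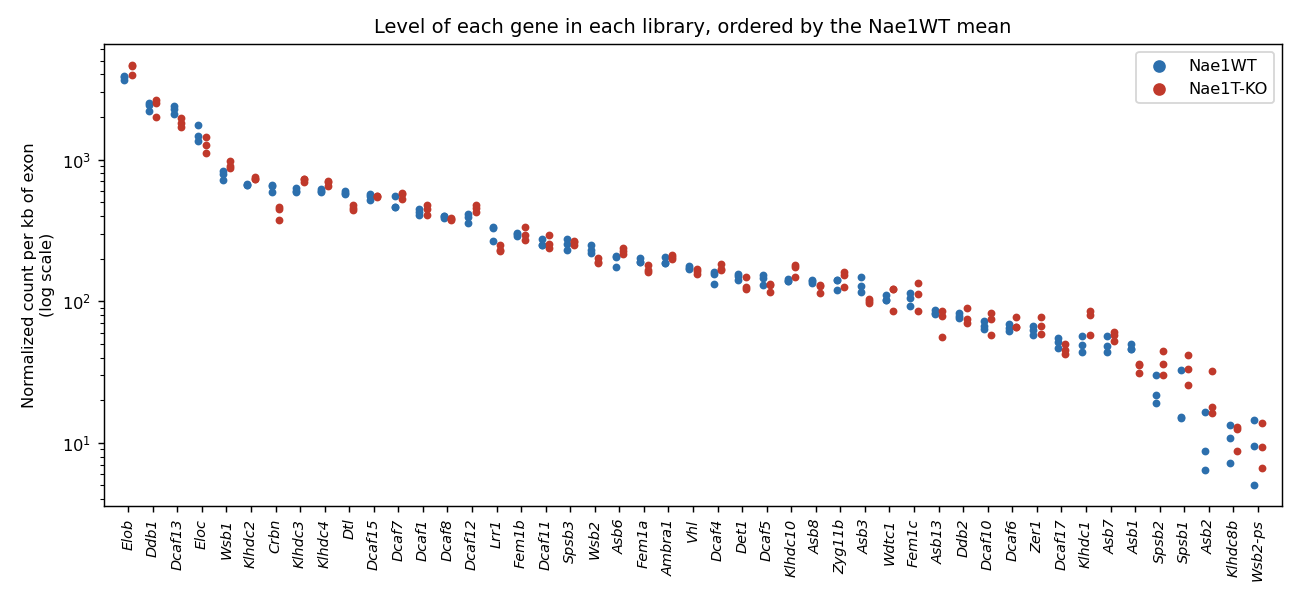
Normalized count per kilobase of exon (vertical axis, log scale) of each of the 47 genes in each library, ordered by the Nae1WT mean; blue points are Nae1WT and red points Nae1T-KO libraries. Elob is highest at 3798 in Nae1WT, and levels fall to 9.63 for Wsb2-ps, with the widest scatter between libraries at the low end.

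Summed over the 18 CRL4 receptors, the level per kilobase was 6393, 6364 and 6330 in Nae1T-KO cells against 6912, 7093 and 6928 in Nae1WT. Every Nae1T-KO library was below every Nae1WT library, with the Nae1T-KO mean at 0.912 of the Nae1WT mean. Without Dcaf13, the most abundant of them, the ratio was 0.961, with 4580, 4672 and 4373 in Nae1T-KO cells against 4822, 4691 and 4670 in Nae1WT, and the groups overlapped. Without the 3 called genes, all of them lower, the ratio was 1.04. The other 15 summed to 3656, 3750 and 3562 in Nae1T-KO cells against 3634, 3470 and 3430 in Nae1WT, with overlap. Those 3 genes were picked as lower in these same libraries, so leaving them out had to raise the ratio. With total-count scaling the ratio was 0.942 over all 18. The 10 CRL2 receptors summed to 2859, 2850 and 2741 in Nae1T-KO cells against 2663, 2644 and 2744 in Nae1WT, a ratio of 1.05 with overlap between groups. The 12 CRL5 receptors summed to 2039, 2056 and 2121 in Nae1T-KO cells against 1824, 2022 and 2033 in Nae1WT, a ratio of 1.06. Their groups narrowly did not overlap, with Nae1T-KO higher, and without Wsb1 the ratio was 0.977 with overlap. These sums describe the libraries and were given no test. CRL4 receptors made up 56.5% of the 3 sums in Nae1T-KO and 60.0% in Nae1WT.

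**Figure D4:**
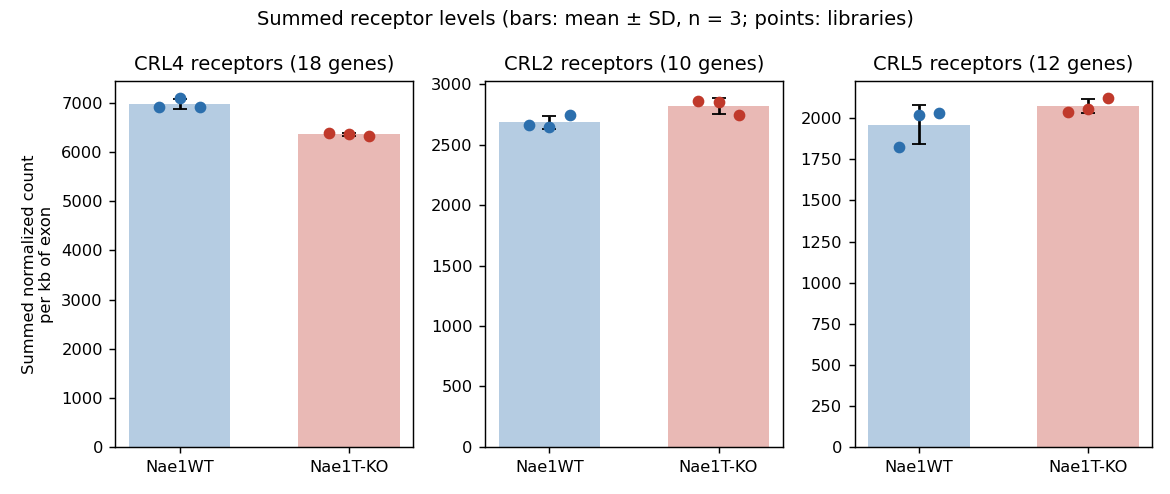
Summed normalized count per kilobase of exon (vertical axes, from 0) of the receptor genes of each CRL class; bars are means ± SD of 3 libraries and points are libraries. CRL4 receptors sum to 6330 to 6393 in Nae1T-KO, below the 6912 to 7093 of Nae1WT, while CRL2 receptors overlap between groups. CRL5 receptors sum to 2039 to 2121 in Nae1T-KO, just above the 1824 to 2033 of Nae1WT.

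For the 40 genes that did not pass, the data limit how large a change could be. In 34 of them the 95% interval, taken gene by gene, lay within a 1.5-fold change in either direction. The other 6 were Asb2, Spsb1, Spsb2, Klhdc1, Klhdc8b and Wsb2-ps. In simulated data of the same comparison, drawn for 13819 genes, limma found 6% of those given a 1.2-fold change and 64% of those given a 1.5-fold change. Only 200 genes were changed there, all with a mean of at least 50 normalized counts, and 137 were called, against 1757 in the data. The adjustment was therefore stricter in the simulation, and these shares may be too low for genes at that level. They do not cover genes of lower mean, such as Asb2, Spsb2, Klhdc8b and Wsb2-ps. An unadjusted p under 0.05 was found for 21 of the 47 genes, or 44.7%, against 29.1% of all tested genes. Within-sex differences had the same sign in females and males for 36 of the 47 genes. For the 20 genes whose groups did not overlap, among them the 7 called genes, a shared sign follows from that. It therefore adds no separate check for them, and the share over all tested genes was not computed.

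The scaffolds, RING proteins and NEDD8-handling enzymes of CRL2, CRL4 and CRL5 held 1 called gene. Their list was chosen with earlier results of these data known. Of 13 scaffold and partner genes, 1 was higher, 0 were lower by limma (1 at an unadjusted p under 0.05, and 0 by edgeR and by DESeq2) and 12 did not pass, against 6.53% of all tested genes called higher and 6.18% called lower. The higher gene was Ube2m, the E2 enzyme that passes NEDD8 to CUL2 and CUL4, with 3833, 3475 and 3858 normalized counts in Nae1T-KO cells against 2900, 3199 and 3268 in Nae1WT. Its groups did not overlap, and the log2 fold change of 0.25 (adjusted p = 0.0481) was called in 9 of 20 alternatives, with adjusted p of 0.0179 to 0.273. The call was lost when any library other than Nae1T-KO replicate 2 was left out (adjusted p 0.0819 to 0.142). The scaffolds Cul2, Cul4a, Cul4b and Cul5 had log2 fold changes of -0.07, 0.19, -0.16 and 0.05.

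Transcripts of proteins known as substrates of these receptors were taken as a separate list of 18 genes. The list was chosen with earlier results of these data known, so its counts are no independent test against all genes. Of the 15 that could be tested, 5 were higher, 2 lower and 8 did not pass, against 6.53% and 6.18% of all tested genes. Their median log2 fold change was 0.25, and the differences are in RNA, while the receptors act on the proteins. Cdkn1a, which encodes the Dtl substrate p21, had 1472, 1421 and 1489 normalized counts in Nae1T-KO cells against 722, 862 and 856 in Nae1WT, a rise of 0.85 on the log2 scale (limma, adjusted p = 0.000425). Kmt5a, another Dtl substrate, had 3123, 2918 and 2885 against 2441, 2498 and 2543, a rise of 0.25 (adjusted p = 0.0286), and the third was Cdt1 at 0.06 (adjusted p = 0.564). Of these 3 genes 2 were higher and Cdt1 did not pass, while Dtl itself was lower. Jun, a target of DET1 with COP1, had 1060, 1162 and 1140 in Nae1T-KO cells against 734, 702 and 776 in Nae1WT, a rise of 0.60 (adjusted p = 0.00126). Ets2, of the ETS family that COP1 also targets, had 530, 583 and 583 in Nae1T-KO cells against 429, 425 and 402 in Nae1WT, a rise of 0.43 (adjusted p = 0.0111). In Cdkn1a, Kmt5a, Cdt1, Jun and Ets2 every Nae1T-KO library was above every Nae1WT library, as it was in Epas1 and Etv5. Of all tested genes, 33.7% had groups that did not overlap, in either direction.

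The D-type cyclin genes Ccnd2 and Ccnd3, whose products AMBRA1 recognises, were lower. Ccnd2 had 13761, 12708 and 11322 normalized counts in Nae1T-KO cells against 16221, 15588 and 17008 in Nae1WT, a fall by 0.37 on the log2 scale (limma, adjusted p = 0.0158), with no overlap. Ccnd3 had 2049, 1876 and 1869 in Nae1T-KO cells against 2427, 2317 and 2508 in Nae1WT and fell by 0.32 (adjusted p = 0.0137), again with no overlap. Both lost the call without Nae1WT replicate 3 (adjusted p 0.0744 and 0.0694). Epas1, whose product HIF2A is a VHL target, had 102, 81.1 and 71.7 in Nae1T-KO cells against 39.3, 37.6 and 65.5 in Nae1WT. Its log2 fold change of 0.86 only just passed (adjusted p = 0.0498) and was called in 8 of 20 alternatives, with adjusted p of 0.0232 to 0.328. Leaving out any library other than Nae1WT replicate 3 ended that call (adjusted p 0.0514 to 0.155). Hif1a, the other VHL target on the list, had 0.35 and did not pass (adjusted p = 0.0913). Cdkn1a and Jun were called in 20 of 20 alternatives, Ets2 in 17, Ccnd2 and Ccnd3 in 16 and Kmt5a in 11, the last with adjusted p of 0.0105 to 0.278. Without Nae1WT replicate 3 Ets2 lost its call (adjusted p = 0.0501), and Kmt5a did so when any library other than Nae1T-KO replicate 3 was left out (adjusted p 0.0568 to 0.0972).

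**Figure D5:**
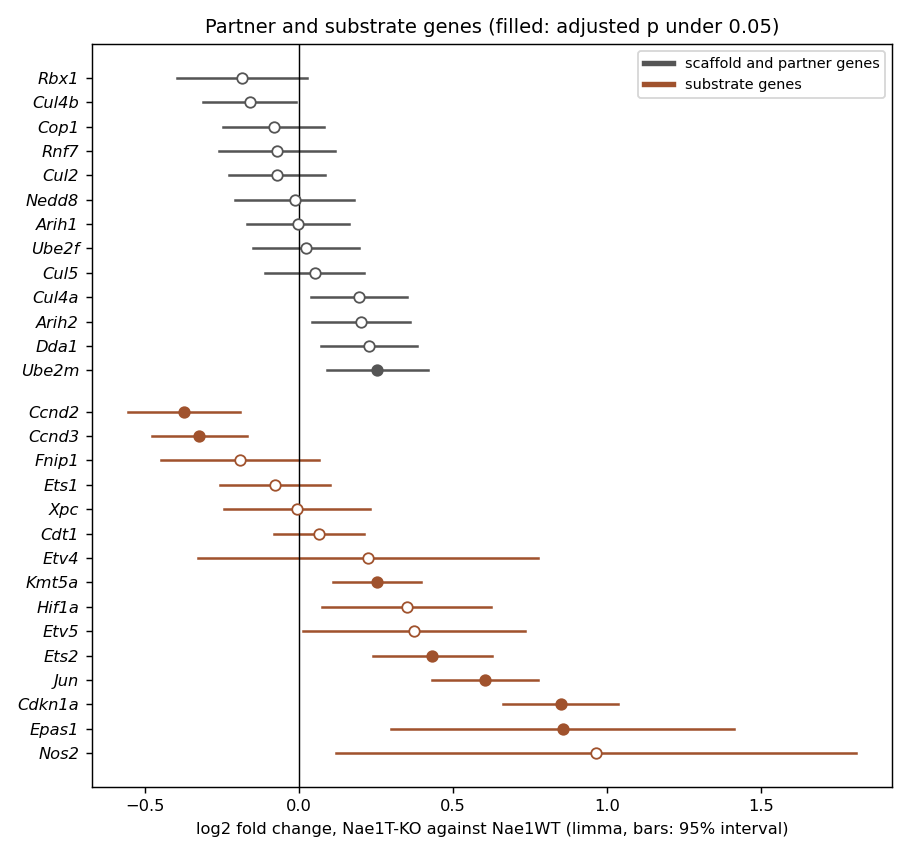
Log2 fold change (horizontal axis, Nae1T-KO against Nae1WT) with 95% interval for 13 scaffold and partner genes and 15 substrate genes; filled points are called. Partner genes run from -0.18 for Rbx1 to 0.25 for Ube2m, the only called one, while substrates run from -0.37 for Ccnd2 to 0.96 for Nos2, which is not called.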

How the data were processed

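Poly-T captured RNA was primed with random hexamers, per the labels' protocols. bcl2fastq, HISAT2, DESeq2 1.42.0 and mm10 are named, per the submitters' processing notes; the counter, the annotation and any use of strand: not given in the sources used here. The deposited values are a signal, gene counts divided by size factors by the authors. Whole reads were recovered for 100% of values in each library (tolerance 0.001), less surely in Nae1T-KO replicate 3, whose step of 1.01 is close to 1.

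Genes with at least 10 normalized counts in at least 3 libraries were tested with limma 3.58.1 (R 4.3.3, trend and robust) on log2(value + 1), group only, with Benjamini-Hochberg adjustment over 13819 genes. Fold changes on this scale understate changes of low genes. Alternatives used edgeR 4.0.16, DESeq2, limma-voom, other scalings, filters and pseudocounts, blocks, sex and single libraries left out. Differences within each sex, and the alternatives for Spsb1, Spsb2 and the partner and substrate lists, were added after seeing the data. Exon lengths came from GENCODE M21 and spans and promoters from RefSeq GRCm38.p6, in which 41 of 47 genes had a promoter window. Values per library are given for called genes, the adaptors, Vhl, Ddb2, Det1, Ambra1, genes with an adjusted p of 0.05 to 0.10, genes whose call changed with scaling, and called partner and substrate genes. Spsb1 and Spsb2 were added after their values were seen. The members and lists were chosen with earlier results of these data known. limma was tested on simulated data, where it made 8 false calls among 137.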

Additional observations from a re-analysis of the deposited data

How the results depend on the processing

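The set held 1 gene called higher and 6 called lower in Nae1T-KO. The higher count was 4 with total-count scaling, 0 without a filter, 2 in DESeq2, 0 at an adjusted p under 0.01 and 0 to 2 with 1 library left out. The lower count was 2 at an adjusted p under 0.01 and 2 to 6 with 1 library left out, and without Nae1WT replicate 2 or replicate 3 just 2 of the 7 calls remained. TMM scaling, edgeR, limma-voom, a filter at 50 or on the mean and pseudocounts of 0.5 and 5 kept all 7 calls. The replicate block by title number left 0 higher and 2 lower, and the replicate block by library name, on 4 libraries, 0 higher and 1 lower. Same-numbered libraries did not deviate together (correlations -0.130, -0.177 and -0.266 by title number). Libraries that share a title number differed in sex by Xist, so these correlations cannot tell whether the numbers pair the samples. The labels do not say that they do. Ddb1, near 0 throughout, turned positive at 0.0434 with total-count scaling, 0.00644 in edgeR, 0.00388 in DESeq2 and 0.0045 with the replicate block by library name, and ran from -0.0855 to 0.115 with 1 library left out. Ddb2 turned positive at 0.0279 with total-count scaling and ran from -0.124 to 0.0578 with 1 library left out. Of the partner genes 0 to 2 and of the substrate genes 2 to 6 were called higher and 0 to 2 lower. The cause of these shifts was not tested. In the simulation, with 3 libraries a group and fewer changed genes than the data, changes of 1.2-fold were mostly not recovered. In the data Klhdc3 was called at 1.18-fold.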

Other observations

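Lrr1, Klhdc1 and Klhdc2 lie in this order on the plus strand of chr12, at chr12:69168814-69179012, chr12:69227729-69284646 and chr12:69296681-69310687. Lrr1 was lower in Nae1T-KO (log2 fold change -0.39, limma, adjusted p = 0.0421). Klhdc1 and Klhdc2 had positive log2 fold changes of 0.57 and 0.16 that did not pass (adjusted p = 0.0603 and 0.139), and neither overlaps Lrr1.

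Of the 47 genes 16 overlap another measured gene by span, and at least 8 of them share exon bases with it. Beside Crbn, Klhdc3, Ddb2 and Spsb2, these are Klhdc8b with Ccdc71 (129 bases), Spsb1 with Gm13070 (103 bases), Dcaf1 with Rbm15b (75 bases) and Elob with Srrm2 (4 bases), each on opposite strands. Ccdc71 had a mean of 766 normalized counts and Gm13070 one of 3.46. For Dcaf15 with Gm39210 and Dcaf12 with Gm46891 the shared exon bases could not be determined. The Dtl span overlaps that of Ints7 by 5 bases with 0 bases of shared exon, and the Asb3 span overlaps that of Chac2 by 9659 bases with 0 bases of shared exon. Ints7 and Chac2 had log2 fold changes of -0.19 and -0.20 and did not pass (adjusted p = 0.151 and 0.455).

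Dcaf15 and Klhdc4 lie on the chromosome of Nae1, 20.4 and 17.3 megabases from it, with log2 fold changes of 0.01 and 0.17, and neither passed.

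Nos2, which encodes the target of Spsb1 and Spsb2, had a log2 fold change of 0.96 with overlapping groups and did not pass (adjusted p = 0.124).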
